A study of Mus musculus with 10 samples.

Results

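Cyclic nucleotide phosphodiesterases are the enzymes that break down cAMP and cGMP, the second messengers of adrenergic, nitric oxide and natriuretic peptide signalling. In cardiac myocytes they are held near receptors, ion channels and the sarcoplasmic reticulum, where they keep cAMP signals local, and different families degrade cAMP, cGMP or both. PDE1 enzymes are switched on by calcium and calmodulin, PDE2 is stimulated by cGMP, PDE3 is inhibited by cGMP, PDE4, PDE7 and PDE8 enzymes are specific for cAMP, and PDE5 is specific for cGMP. The 10 genes described here are Pde1a, Pde1c, Pde2a, Pde3a, Pde4a, Pde4b, Pde4d, Pde5a, Pde7a and Pde8b. They were taken by name from the 45882 gene IDs of the transcript files, and another 14 phosphodiesterase genes of the same files serve as their setting.

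The RNA was that of left ventricular myocytes, isolated from adult mice of the C57BL/6 strain. The groups were 4 libraries from CTCF knockout mice, 3 libraries from mice after transverse aortic constriction (TAC), which loads the left ventricle with pressure, and 3 libraries from control mice. CTCF is a DNA-binding zinc finger protein that helps to fold chromatin into loops. The labels used here give neither the promoter that drove the deletion of Ctcf, nor the time after surgery, the genotype of the TAC mice, or the ages. Each library carried a mouse number of its own.

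Levels are FPKM, fragments per transcript corrected for transcript length and library size, which the authors estimated per transcript. They were summed over the transcripts of a gene and rescaled between libraries. Per-library values are listed from replicate 1 upward. Fold changes were computed as differences of log2(FPKM + 1), so those of genes at low levels are understated. A gene was called, and is said to have risen or fallen, at an adjusted p under 0.05 from limma with Benjamini-Hochberg adjustment over all 11358 tested genes. Where libraries of different groups are said not to overlap, this only describes the values. How often that occurs among all tested genes or transcripts was not computed.

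The Ctcf gene itself stood at 2.90, 4.01, 2.60 and 4.42 FPKM in CTCF knockout libraries, at 7.32, 5.70 and 5.22 FPKM in TAC libraries and at 8.81, 8.34 and 6.80 FPKM in control libraries, so every knockout library lay below every other library. The summed level of 10 cardiac myocyte markers was 25406 to 32820 FPKM in CTCF knockout libraries, 27307 to 33870 FPKM in TAC libraries and 34766 to 38176 FPKM in control libraries. Of these 10, 5 fell and 1 rose in CTCF knockout, and 3 fell and 1 rose in TAC, against control, where 20.8% of all tested genes were called in CTCF knockout and 15.5% in TAC. Markers of other cells were present at far lower sums, but sums over different genes do not measure the shares of cells. Within the myocyte list itself, means over the 10 libraries ran from 26.9 FPKM for Nkx2-5 to 8024 FPKM for Myl2. The 9 fibroblast markers summed to 171 to 256 FPKM in CTCF knockout, 231 to 255 FPKM in TAC and 75.2 to 139 FPKM in control libraries, and 5 of 8 tested rose in each comparison with control. The 10 smooth muscle and pericyte markers summed to 103 to 126 FPKM in CTCF knockout, 121 to 133 FPKM in TAC and 198 to 206 FPKM in control libraries. Of the 9 tested among them, 3 fell and 1 rose in each comparison with control, and Cnn1 averaged 0.380 FPKM over the libraries. Abcc9 made the largest part of the difference in this marker sum. Its means were 24.2 FPKM in CTCF knockout, 32.2 FPKM in TAC and 64.5 FPKM in control, and which cells its RNA came from was not tested. The 10 endothelial markers summed to 101 to 179 FPKM in CTCF knockout, 119 to 178 FPKM in TAC and 81.6 to 114 FPKM in control libraries, and 3 rose in CTCF knockout and 0 were called in TAC. The 8 macrophage and leukocyte markers summed to 49.8 to 82.5 FPKM in CTCF knockout, 66.5 to 81.7 FPKM in TAC and 46.7 to 64.4 FPKM in control libraries, with 2 risen and 1 fallen in CTCF knockout and 1 risen in TAC. The part of these other cells in the phosphodiesterase results was not tested, and in bulk RNA fewer cells of a type and less RNA per cell cannot be told apart.

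Most changes in this family concerned PDE4 and PDE7 genes that have several start sites. The first 60 coding bases of some of the transcripts named below are shown to tell these apart from one another. The short Pde7a-203, also named below, begins with the same 60 bases as Pde7a-201. The bases shown were read from the mm10 genome at the coding starts of the GENCODE annotation, 5′ to 3′ on the strand of the gene, with the start codon in capitals.
Pde4b-207: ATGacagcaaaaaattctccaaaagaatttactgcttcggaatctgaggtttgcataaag
Pde4b-203: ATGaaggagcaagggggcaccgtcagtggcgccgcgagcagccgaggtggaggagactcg
Pde4d-207: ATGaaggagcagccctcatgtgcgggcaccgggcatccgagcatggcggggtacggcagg
Pde7a-201: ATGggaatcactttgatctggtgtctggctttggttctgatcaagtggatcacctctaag
Pde7a-202: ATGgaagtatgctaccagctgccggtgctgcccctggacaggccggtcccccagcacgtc
The Pde4b-207 stretch lies at chr4:102255221-102255280 and that of Pde4b-203 at chr4:102570648-102570707, both on the plus strand. The Pde4d-207 stretch lies at chr13:109903441-109903500 on the plus strand. Those of Pde7a lie on the minus strand, at chr3:19264820-19264879 for Pde7a-201 and at chr3:19310942-19311001 for Pde7a-202. Pde4b-203 and Pde4d-207, which start far downstream in their genes, open with the same letters, ATGaaggagca. Within a gene the forms compared here differ in their first exons and share the rest of the reading frame. The last 1576 coding bases were common to Pde4b-203, with 1692 in all, and Pde4b-207, with 2163. The last 1310 were common to Pde7a-201, with 1368, and Pde7a-202, with 1446. Pde4d-207, with 1752 coding bases, shared its last 1619 with the longer form Pde4d-209, with 2241.

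Of the 10 genes, 8 passed the filter on low values, a mean of at least 1 FPKM, and Pde5a and Pde8b did not. In CTCF knockout against control myocytes 1 of the 8, Pde7a, fell and 7 were not called, where 20.8% of all tested genes were called, 10.6% higher and 10.2% lower. In TAC against control myocytes 1 of the 8, Pde4b, fell, where 15.5% of all tested genes were called, 8.08% higher and 7.37% lower. Between CTCF knockout and TAC myocytes 1 of the 8, again Pde4b, was higher in the knockout, where 3.28% of all tested genes were called, 1.58% higher and 1.7% lower. With 8 genes, a count of 1 is too coarse to be read as below or above the share of all genes in any comparison. Between CTCF knockout and TAC the count rests on Pde4b alone. The median log2 fold change of the 8 was -0.19 for CTCF knockout against control, -0.02 for TAC against control and -0.20 for CTCF knockout against TAC, beside -0.01 over all tested genes in each. The comparisons share libraries, so they are not independent of one another.

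**Figure D1:**
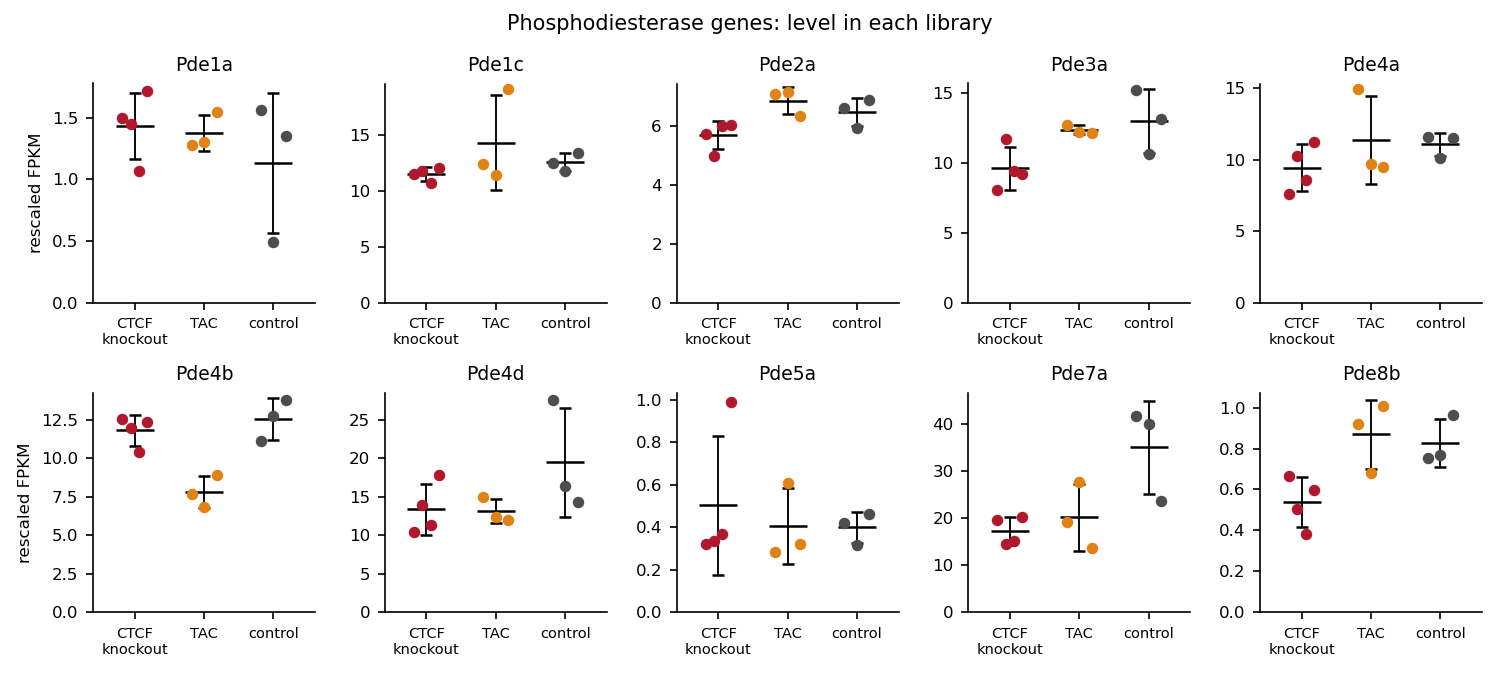
Rescaled FPKM (y axis, from 0) of the 10 phosphodiesterase genes in each library (points), by group (x axis), with the mean (bar) and SD (whiskers) of 4 CTCF knockout, 3 TAC and 3 control libraries. Pde7a lay lower in all CTCF knockout libraries than in any control library, and Pde4b lower in all TAC libraries than in any other library.

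**Figure D2:**
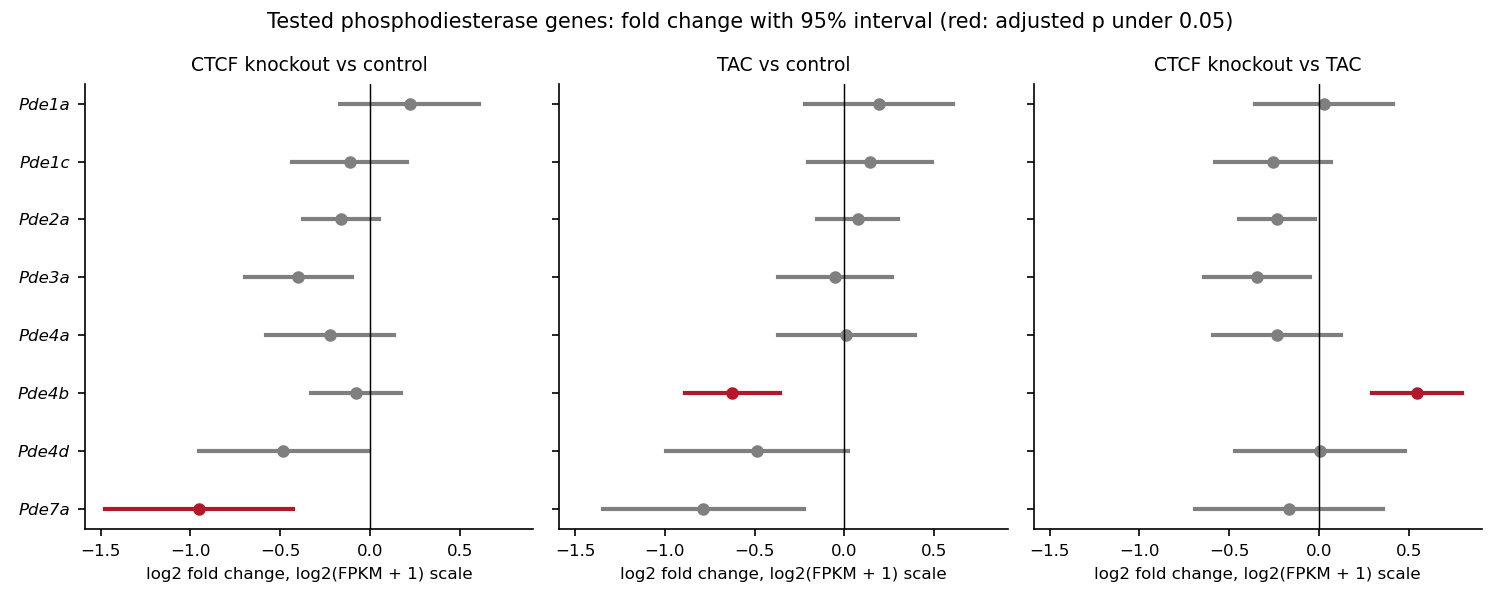
Log2 fold change on the log2(FPKM + 1) scale (x axis) with its 95% interval from limma (lines) for the 8 tested phosphodiesterase genes (y axis) in 3 comparisons, called genes in red. Red marks Pde7a in CTCF knockout against control, Pde4b in TAC against control and Pde4b in CTCF knockout against TAC.

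By summed level Pde7a ranked first in every group, with 17.3 ± 2.94 FPKM in CTCF knockout (SD, n = 4), 20.1 ± 7.07 FPKM in TAC and 35.1 ± 9.87 FPKM in control myocytes (SD, n = 3 each). Pde4d, Pde4b, Pde1c, Pde3a and Pde4a followed in an order that differed between groups, with group means from 7.80 to 19.5 FPKM. Among these 6 genes the ranges of neighbours in the order overlapped in every group, except that TAC libraries of Pde4a lay above those of Pde4b. Pde2a followed with group means of 5.67 to 6.85 FPKM, its range separate from the gene above it in CTCF knockout and control libraries. Pde1a had means of 1.14 to 1.43 FPKM, and Pde8b and Pde5a stayed below 1 FPKM on average in every group. The first rank of Pde7a rests on short transcripts: transcripts under 1000 nt gave 13.1 FPKM of its sum on average over the 10 libraries. Each transcript was then weighted by its length over that of the longest annotated transcript of its gene. This lowers genes with shorter forms and leaves Pde3a, with 1 transcript, unchanged, so the order between genes depends partly on the annotation. So weighted, Pde7a averaged 6.00 FPKM in CTCF knockout, below Pde3a at 9.61, Pde1c at 9.29, Pde4a at 7.71, Pde4b at 7.54 and Pde4d at 7.09 FPKM. In TAC it averaged 6.24 FPKM, below Pde3a at 12.4, Pde1c at 11.7, Pde4a at 8.89, Pde4d at 7.55 and Pde2a at 6.83 FPKM. In control it averaged 10.9 FPKM, below Pde3a at 13.0 and Pde4d at 11.1 FPKM and above Pde1c at 10.02, Pde4b at 9.29 and Pde4a at 8.81 FPKM. The 10 genes together summed to 73.3 to 92.2 FPKM in CTCF knockout, 84.5 to 91.4 FPKM in TAC and 99.6 to 129 FPKM in control libraries, so neither CTCF knockout nor TAC libraries overlapped with control libraries. Pde7a holds the largest part of that difference between the group means in both comparisons. All 24 phosphodiesterase genes summed to 92.7 to 114 FPKM in CTCF knockout, 107 to 118 FPKM in TAC and 116 to 151 FPKM in control libraries. In that wider sum TAC libraries overlapped with control libraries, and CTCF knockout libraries did not.

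Pde1a and Pde1c encode calcium- and calmodulin-stimulated enzymes, of which PDE1C degrades cAMP and cGMP about equally well and PDE1A prefers cGMP. Pde1c (chr6:56069821-56369634, minus strand) stood at 11.5, 11.8, 10.7 and 12.1 FPKM in CTCF knockout, 12.4, 11.4 and 19.2 FPKM in TAC and 12.5, 11.8 and 13.4 FPKM in control libraries. All libraries lay close together except TAC replicate 3. The log2 fold change was -0.11 (adjusted p = 0.63) for CTCF knockout and 0.14 (adjusted p = 0.593) for TAC against control by limma, and the 95% intervals were -0.44 to 0.21 and -0.20 to 0.49. Its 2 longest forms exchanged places between libraries. Pde1c-204 had 4.43, 3.10, 2.47 and 2.26 FPKM in CTCF knockout, 0.871, 2.16 and 0.0197 FPKM in TAC and 1.64, 0.000754 and 3.91 FPKM in control libraries. Pde1c-205 had 2.89, 4.42, 4.18 and 5.66 FPKM in CTCF knockout, 7.62, 5.03 and 12.6 FPKM in TAC and 5.71, 7.52 and 4.84 FPKM in control libraries. These forms share all 1893 coding bases and differ outside them, so how reads were divided between them is an estimate, and neither was called in any comparison. Pde1a (chr2:79834453-80129458, minus strand) stood at 1.50, 1.45, 1.07 and 1.72 FPKM in CTCF knockout, 1.28, 1.31 and 1.55 FPKM in TAC and 1.57, 0.489 and 1.35 FPKM in control libraries. Control replicate 2 was the low one, the groups overlapped, and Pde1a was not called (log2 fold change 0.22, adjusted p = 0.421 for CTCF knockout, and 0.19, adjusted p = 0.54 for TAC, by limma). The 3 calmodulin genes, which encode the activator of PDE1, were all tested and none was called in any comparison.

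Pde2a encodes the dual enzyme whose breakdown of cAMP is stimulated by cGMP. Its gene ID bears another name, Gm45837, in the GENCODE release used for symbols and was identified by its position (chr7:101421691-101512829, plus strand), which equals that of Pde2a in RefSeq. Levels were 5.72, 4.98, 5.98 and 6.02 FPKM in CTCF knockout, 7.09, 7.14 and 6.32 FPKM in TAC and 6.59, 5.93 and 6.86 FPKM in control libraries. Knockout libraries lay below all TAC libraries and overlapped with control. No comparison was called, with log2 fold changes of -0.16 (adjusted p = 0.273) for CTCF knockout against control, 0.07 (adjusted p = 0.683) for TAC against control and -0.24 (adjusted p = 0.224) for CTCF knockout against TAC by limma.

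Pde3a encodes the enzyme that degrades cAMP near the sarcoplasmic reticulum and is the target of the inotropic drug milrinone. It lies at chr6:141249269-141505940 on the plus strand, and the files list 1 transcript for it. Pde3a stood at 8.06, 11.8, 9.42 and 9.22 FPKM in CTCF knockout, 12.8, 12.3 and 12.1 FPKM in TAC and 15.3, 10.6 and 13.2 FPKM in control libraries. Knockout libraries lay below every TAC library, and all but replicate 2 lay below every control library. The log2 fold change of -0.40 ± 0.14 (SE) for CTCF knockout against control missed the threshold (adjusted p = 0.0574, limma). It passed without CTCF knockout replicate 2 (adjusted p = 0.0289) and without control replicate 2 (adjusted p = 0.0274), and just so with a filter at a mean of 5 FPKM (adjusted p = 0.0494). TAC against control gave -0.05 (adjusted p = 0.848), and CTCF knockout against TAC gave -0.35 (adjusted p = 0.203).

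PDE4 enzymes supply much of the cAMP-specific activity of rodent myocytes. Their long forms carry upstream conserved regions that let protein kinase A activate them, and their short forms lack part of these regions. Pde4a (chr9:21165714-21213248, plus strand) stood at 7.60, 10.3, 8.62 and 11.3 FPKM in CTCF knockout, 15.0, 9.74 and 9.50 FPKM in TAC and 11.6, 10.2 and 11.6 FPKM in control libraries. The groups overlapped, TAC replicate 1 was the highest library, and the log2 fold changes were -0.22 (adjusted p = 0.369) for CTCF knockout and 0.01 (adjusted p = 0.975) for TAC against control by limma.

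Pde4b encodes the PDE4 enzyme that is associated with L-type calcium channels in mouse heart. It lies at chr4:102087543-102607259 on the plus strand. Pde4b stood at 12.6, 11.9, 10.4 and 12.4 FPKM in CTCF knockout, 7.66, 6.82 and 8.91 FPKM in TAC and 11.1, 12.8 and 13.8 FPKM in control libraries. Every TAC library lay below every library of the other groups, and knockout and control libraries overlapped. The mean in TAC was 7.80 ± 1.05 FPKM (SD, n = 3), 62.2% of the 12.5 ± 1.34 FPKM in control myocytes (SD, n = 3). The log2 fold change for TAC against control was -0.62 ± 0.12 (SE; adjusted p = 0.00605, limma), and it was called under each of the 23 alternatives tried. For CTCF knockout against control it was -0.08 ± 0.11 (adjusted p = 0.676), with a 95% interval of -0.33 to 0.17. CTCF knockout was higher than TAC by 0.55 ± 0.11 (adjusted p = 0.0261), a call lost when the transcripts summed were limited to those of at least 1000 nt (adjusted p = 0.079) or weighted by length (adjusted p = 0.0672), or with no filter on low values (adjusted p = 0.0628). It was also lost without CTCF knockout replicate 1, 2 or 4 or TAC replicate 1 or 2, each left out alone (log2 fold change 0.46 to 0.54, adjusted p from 0.0582 to 0.112).

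The forms of Pde4b did not all have the same pattern. The long form Pde4b-207 stood at 5.29, 4.58, 3.69 and 4.17 FPKM in CTCF knockout, 3.23, 2.44 and 3.93 FPKM in TAC and 5.16, 6.05 and 6.81 FPKM in control libraries. It fell in TAC against control by 0.75 on the log2 scale (SE 0.16; adjusted p = 0.0196, limma over 17685 transcripts). The short form Pde4b-203 stood at 2.26, 2.93, 1.59 and 2.09 FPKM in CTCF knockout, 1.66, 1.57 and 1.90 FPKM in TAC and 2.62, 3.13 and 4.01 FPKM in control libraries. It fell in TAC by 0.64 (SE 0.17; adjusted p = 0.044). The call of Pde4b-207 was kept in 12 of 19 alternatives and that of Pde4b-203 in 7 of 19. In the knockout neither was called, with log2 fold changes of -0.37 (adjusted p = 0.139) for Pde4b-207 and -0.40 (adjusted p = 0.126) for Pde4b-203. Transcripts of Pde4b under 1000 nt summed to 2.46, 3.10, 3.10 and 4.05 FPKM in CTCF knockout, 1.52, 1.75 and 1.90 FPKM in TAC and 1.73, 1.53 and 1.35 FPKM in control libraries. All knockout libraries lay above all others in these short transcripts, the largest of which, the retained-intron transcript Pde4b-209, had 1.28, 2.01, 1.45 and 1.87 FPKM in CTCF knockout and 0.893, 1.03 and 1.18 FPKM in control libraries (log2 fold change 0.37, adjusted p = 0.107, not called). With transcripts of at least 1000 nt alone, Pde4b in CTCF knockout against control had a log2 fold change of -0.30 (adjusted p = 0.121).

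Pde4d encodes the PDE4 enzyme found with the ryanodine receptor and with beta adrenergic receptors. It lies at chr13:108449948-109953461 on the plus strand, and a processed gene on the same strand, Rps3a3, lies within it at a mean of 22.5 FPKM. Pde4d stood at 10.5, 14.0, 11.3 and 17.8 FPKM in CTCF knockout, 14.9, 12.4 and 12.0 FPKM in TAC and 27.6, 16.4 and 14.4 FPKM in control libraries. Control replicate 1 was far above the rest and the groups overlapped. The log2 fold changes of -0.48 (adjusted p = 0.14) for CTCF knockout and -0.49 (adjusted p = 0.181) for TAC against control were not called by limma. Without control replicate 1 they were -0.21 (adjusted p = 0.467) and -0.22 (adjusted p = 0.497). Transcripts that are not protein-coding made up much of this spread. They summed to 4.60, 7.0, 4.72 and 9.87 FPKM in CTCF knockout, 6.05, 4.42 and 4.20 FPKM in TAC and 15.1, 6.21 and 5.27 FPKM in control libraries, and 1 of them, Pde4d-211, had 11.1 FPKM in control replicate 1 and 3.59 and 3.24 FPKM in the other control libraries.

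The protein-coding transcripts of Pde4d summed to 5.85, 6.97, 6.60 and 7.96 FPKM in CTCF knockout, 8.88, 7.99 and 7.84 FPKM in TAC and 12.5, 10.2 and 9.12 FPKM in control libraries. Neither CTCF knockout nor TAC libraries overlapped with control libraries. In a fit restricted to protein-coding transcripts, an alternative added after the data had been seen, Pde4d fell in CTCF knockout by 0.56 on the log2 scale (adjusted p = 0.00837, limma) and had -0.33 (adjusted p = 0.118) in TAC. With transcripts weighted by length it fell in CTCF knockout by 0.55 (adjusted p = 0.0423). The largest coding form, the short Pde4d-207, stood at 2.28, 3.27, 2.79 and 3.31 FPKM in CTCF knockout, 4.04, 3.16 and 3.49 FPKM in TAC and 6.28, 5.29 and 5.31 FPKM in control libraries. All CTCF knockout and TAC libraries were below all control libraries. It fell in CTCF knockout by 0.76 (SE 0.13; adjusted p = 0.00443) and in TAC by 0.54 (SE 0.14; adjusted p = 0.0348) against control. The knockout call was kept in each of 19 alternatives and the TAC call in 10 of 19. The long form Pde4d-209 stood at 1.83, 1.72, 1.93 and 1.59 FPKM in CTCF knockout, 2.22, 0.931 and 1.15 FPKM in TAC and 2.68, 1.88 and 1.57 FPKM in control libraries and was not called.

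**Figure D3:**
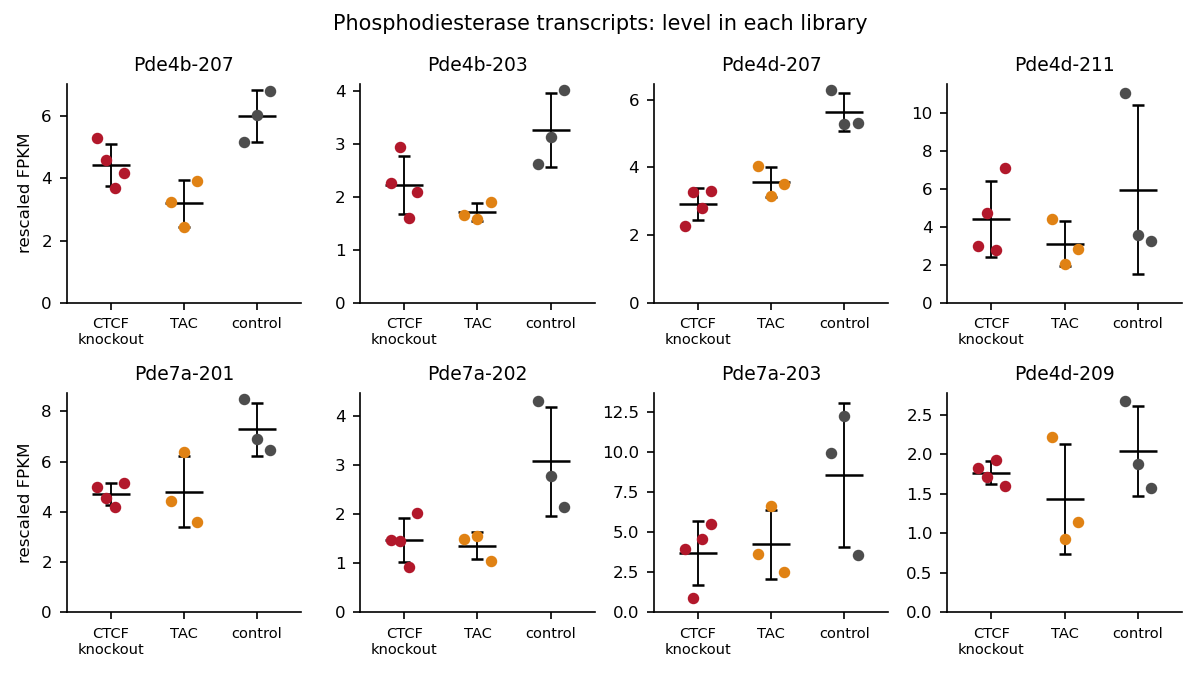
Rescaled FPKM (y axis, from 0) of 8 transcripts of Pde4b, Pde4d and Pde7a in each library (points), by group (x axis), with the mean (bar) and SD (whiskers) of 4 CTCF knockout, 3 TAC and 3 control libraries. Pde4d-207 lay at 2.28 to 4.04 FPKM in CTCF knockout and TAC libraries, below the 5.29 to 6.28 FPKM of control libraries, while Pde4d-211 and Pde7a-203 varied widely among control libraries.

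Pde5a encodes the cGMP-specific enzyme inhibited by sildenafil, which is prominent in vascular smooth muscle. It lay at 0.319, 0.334, 0.366 and 0.992 FPKM in CTCF knockout, 0.285, 0.611 and 0.321 FPKM in TAC and 0.421, 0.318 and 0.461 FPKM in control libraries. It was below the filter and was not tested. Knockout replicate 4 owed its high value to transcripts that are not protein-coding, which had 0.537 FPKM there and were listed at 0 in the other knockout libraries. The protein-coding transcripts of Pde5a ranged from 0.319 to 0.455 FPKM in CTCF knockout, 0.237 to 0.295 FPKM in TAC and 0.219 to 0.461 FPKM in control libraries.

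Pde7a encodes a high-affinity cAMP-specific enzyme. It lies at chr3:19223108-19311322 on the minus strand, with 10 transcripts in the files. Pde7a stood at 19.5, 14.5, 15.1 and 20.1 FPKM in CTCF knockout, 19.1, 27.6 and 13.6 FPKM in TAC and 41.6, 39.9 and 23.7 FPKM in control libraries. All knockout libraries lay below all control libraries, with control replicate 3 the nearest, and TAC replicate 2 overlapped with control. The mean in CTCF knockout was 49.3% of that in control. The log2 fold change was -0.95 ± 0.24 (SE; adjusted p = 0.0162, limma) for CTCF knockout against control. The call was lost without control replicate 1 (-0.81, adjusted p = 0.0616) and without control replicate 2 (-0.84, adjusted p = 0.0658), and with no filter on low values (adjusted p = 0.0627). For TAC against control it was -0.79 ± 0.26 (adjusted p = 0.0598), and this passed the threshold without TAC replicate 2 (-1.03, adjusted p = 0.0253) or without control replicate 3 (-1.04, adjusted p = 0.0203). CTCF knockout against TAC gave -0.17 (adjusted p = 0.771), with a 95% interval of -0.69 to 0.36.

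Both full-length coding forms of Pde7a were lower in all CTCF knockout and TAC libraries than in any control library. For Pde7a-201 in TAC this was narrow, with 6.39 FPKM in the highest TAC library and 6.48 FPKM in the lowest control library. Pde7a-201 stood at 4.98, 4.55, 4.18 and 5.14 FPKM in CTCF knockout, 4.41, 6.39 and 3.61 FPKM in TAC and 8.48, 6.89 and 6.48 FPKM in control libraries. Its log2 fold changes were -0.53 (adjusted p = 0.0523) for CTCF knockout and -0.53 (adjusted p = 0.0801) for TAC against control by limma, neither called. Pde7a-202 stood at 1.48, 1.44, 0.917 and 2.01 FPKM in CTCF knockout, 1.48, 1.55 and 1.04 FPKM in TAC and 4.30, 2.77 and 2.15 FPKM in control libraries. It fell in CTCF knockout by 0.71 (adjusted p = 0.045) and missed the threshold in TAC (-0.76, adjusted p = 0.0556). The transcript of 382 nt, Pde7a-203, stood at 3.95, 0.878, 4.54 and 5.51 FPKM in CTCF knockout, 3.60, 6.60 and 2.48 FPKM in TAC and 9.90, 12.2 and 3.56 FPKM in control libraries, an uneven level even among controls. Another 2 short transcripts fell in CTCF knockout, the retained-intron Pde7a-206 by 0.81 (adjusted p = 0.0429) and Pde7a-209, marked for nonsense-mediated decay, by 1.0 (adjusted p = 0.0257). Of 19 alternatives, 6 kept the call of Pde7a-202, 10 that of Pde7a-206 and 14 that of Pde7a-209. With transcripts of at least 1000 nt alone, Pde7a fell in CTCF knockout by 0.76 (adjusted p = 0.0151) and in TAC by 0.77 (adjusted p = 0.0234; weighted by length, adjusted p = 0.0294), and CTCF knockout against TAC gave 0.01 (adjusted p = 0.98). Myocyte and smooth muscle marker sums were lower in all CTCF knockout and all TAC libraries than in any control library. Summed Pde7a was separate from control in CTCF knockout but overlapped with it in TAC. The part of these cells in the fall of Pde7a was not tested. The smooth muscle and pericyte markers did not move as 1 set. Of the 9 tested in CTCF knockout against control, Abcc9, Acta2 and Smtn fell and Cspg4 rose. The other 5, Myh11 and Tagln among them, were not called.

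Of the 89 transcripts of the 10 genes, 22 had a mean of at least 1 FPKM and were tested. In CTCF knockout against control 4 were called, all lower, which are Pde4d-207, Pde7a-202, Pde7a-206 and Pde7a-209, where 14.6% of all tested transcripts were called. In TAC against control 3 were called, all lower, Pde4b-207, Pde4b-203 and Pde4d-207, where 10.1% were called. Between CTCF knockout and TAC 0 were called, where 0.956% of all were.

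Pde8b, a cAMP-specific enzyme of high affinity, lay at 0.668, 0.507, 0.384 and 0.599 FPKM in CTCF knockout, 0.919, 0.681 and 1.01 FPKM in TAC and 0.752, 0.768 and 0.965 FPKM in control libraries. All knockout libraries lay below all other libraries, at 65.1% of the control mean, and the gene was below the filter and not tested.

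Of the other 14 phosphodiesterase genes 4 were tested, and Pde8a was the only one called. Pde8a, the close relative of Pde8b, stood at 6.91, 7.27, 6.45 and 7.28 FPKM in CTCF knockout, 8.59, 9.86 and 9.18 FPKM in TAC and 4.98, 4.30 and 4.96 FPKM in control libraries. The 3 groups did not overlap. Pde8a rose in CTCF knockout by 0.48 ± 0.09 (SE; adjusted p = 0.00428, limma) and in TAC by 0.83 ± 0.10 (adjusted p = 0.000368), and these calls were kept under each of 23 alternatives. CTCF knockout against TAC gave -0.36 ± 0.09 (adjusted p = 0.0613). Pde3b, Pde6d and Pde7b were not called. The other 10 were below the filter and were not tested, and Pde6c was listed at 0 in every library. Of these 10, the 4 whose libraries did not overlap in some comparison are given, a choice made after their values were seen. Pde10a, which degrades both nucleotides, lay at 0.465 to 0.692 FPKM in CTCF knockout, 0.307 to 0.738 FPKM in TAC and 0.333 to 0.380 FPKM in control libraries, so it was higher in all knockout than in all control libraries. Pde11a, which also degrades both, lay at 0.0332 to 0.0609 FPKM in CTCF knockout, 0.175 to 0.388 FPKM in TAC and 0.235 to 0.278 FPKM in control libraries, lower in the knockout than in either other group. Pde4c lay at 0.459 to 0.673 FPKM in CTCF knockout, 0.530 to 0.768 FPKM in TAC and 0.978 to 1.49 FPKM in control libraries, lower in all CTCF knockout and TAC libraries than in any control library. Pde6g, a subunit of the photoreceptor enzyme, lay at 0.00981 to 0.318 FPKM in CTCF knockout, 0.0231 to 0.0715 FPKM in TAC and 0.230 to 0.358 FPKM in control libraries, lower in TAC than in control. Over all 14991 genes below the filter with a level above 0, such separation was found in CTCF knockout against control for 5.18% higher and 4.08% lower, in TAC against control for 5.74% higher and 5.44% lower, and in CTCF knockout against TAC for 3.15% higher and 2.33% lower. Each of these shares is for 1 comparison and 1 direction, so the 4 of 10, taken over any comparison, cannot be set beside them.

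Around the phosphodiesterases, 59 genes of cyclic nucleotide signalling in 6 lists were examined, of which 48 were tested. In CTCF knockout against control 8 rose and 4 fell, in TAC against control 7 rose and 3 fell, and between CTCF knockout and TAC 0 were higher and 2 lower in the knockout. These 12 of 48 in CTCF knockout stand beside 20.8% of all tested genes called, the 10 of 48 in TAC beside 15.5%, and the 2 of 48 between CTCF knockout and TAC beside 3.28%, so each count is near the share of all genes. The median log2 fold change of the 48 was 0.05 for CTCF knockout against control, 0.11 for TAC against control and -0.04 for CTCF knockout against TAC, beside -0.01 over all tested genes in each. Among receptors and cyclases, Npr3, the clearance receptor of natriuretic peptides, stood at 6.13, 9.92, 6.74 and 9.43 FPKM in CTCF knockout, 11.0, 6.16 and 9.58 FPKM in TAC and 5.14, 3.77 and 2.45 FPKM in control libraries. It rose in CTCF knockout by 0.94 (adjusted p = 0.0147, limma) and in TAC by 1.06 (adjusted p = 0.0142). Nos3, the endothelial nitric oxide synthase, rose in TAC by 0.45 (adjusted p = 0.0496), beside endothelial marker sums of 119 to 178 FPKM in TAC and 81.6 to 114 FPKM in control libraries, and its part in that was not tested.

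Of the 12 tested effectors of cyclic nucleotides, Prkar1a, a regulatory subunit of protein kinase A, stood at 181, 239, 206 and 203 FPKM in CTCF knockout, 167, 187 and 194 FPKM in TAC and 69.7, 84.7 and 95.9 FPKM in control libraries. It rose in CTCF knockout by 1.31 (adjusted p = 8.5e-05, limma) and in TAC by 1.13 (adjusted p = 0.00044). Popdc3, a membrane protein of the cAMP-binding Popeye family, rose in CTCF knockout by 0.45 (adjusted p = 0.033) and in TAC by 0.55 (adjusted p = 0.0229). Pkia, an inhibitor of protein kinase A, stood at 45.7, 40.9, 50.1 and 46.9 FPKM in CTCF knockout, 53.6, 45.2 and 61.1 FPKM in TAC and 60.9, 76.1 and 84.9 FPKM in control libraries. It fell in CTCF knockout by 0.67 (adjusted p = 0.00554) and missed the threshold in TAC (-0.46, adjusted p = 0.0522). Rapgef4, the cAMP-activated exchange factor Epac2, fell in CTCF knockout by 0.65 (adjusted p = 0.00946), with -0.08 (adjusted p = 0.775) in TAC. Bves, another Popeye protein, was lower in CTCF knockout than in TAC by 0.40 (adjusted p = 0.0416), and its log2 fold changes against control were -0.20 and 0.20, neither called.

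Among 16 tested anchoring proteins and phosphodiesterase partners, the anchoring protein gene Akap2 stood at 22.8, 43.6, 23.5 and 23.8 FPKM in CTCF knockout, 43.4, 45.1 and 46.1 FPKM in TAC and 12.1, 12.2 and 12.8 FPKM in control libraries. It rose in CTCF knockout by 1.08 (adjusted p = 0.00229, limma) and in TAC by 1.78 (adjusted p = 0.000267). Hspb6, a small heat shock protein phosphorylated by protein kinase A, stood at 169, 187, 182 and 161 FPKM in CTCF knockout, 255, 251 and 291 FPKM in TAC and 109, 133 and 151 FPKM in control libraries. It rose in both comparisons with control, by 0.42 (adjusted p = 0.0313) in CTCF knockout and 1.02 (adjusted p = 0.000534) in TAC, and was lower in CTCF knockout than in TAC by 0.60 (adjusted p = 0.0254). In CTCF knockout, Mtus2 fell by 0.39 (adjusted p = 0.0259). In TAC, Akap7, which anchors protein kinase A near phospholamban, fell by 0.52 (adjusted p = 0.0391), and the nuclear anchoring protein gene Akap8 fell by 0.44 (adjusted p = 0.0292).

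Of the 9 tested cAMP-responsive transcription factors, Creb1 stood at 3.47, 3.90, 3.45 and 3.62 FPKM in CTCF knockout, 4.16, 3.32 and 3.71 FPKM in TAC and 6.11, 4.97 and 5.38 FPKM in control libraries. It fell in CTCF knockout by 0.49 (adjusted p = 0.00598, limma) and in TAC by 0.45 (adjusted p = 0.0157). Creb3l2 rose in CTCF knockout by 0.56 (adjusted p = 0.00856) and in TAC by 0.60 (adjusted p = 0.0113). Crem, whose locus also makes a cAMP-inducible repressor, rose in CTCF knockout by 0.58 (adjusted p = 0.0308) and had 0.26 (adjusted p = 0.372) in TAC. The 2 exporters of cyclic nucleotides were tested and not called.

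**Figure D4:**
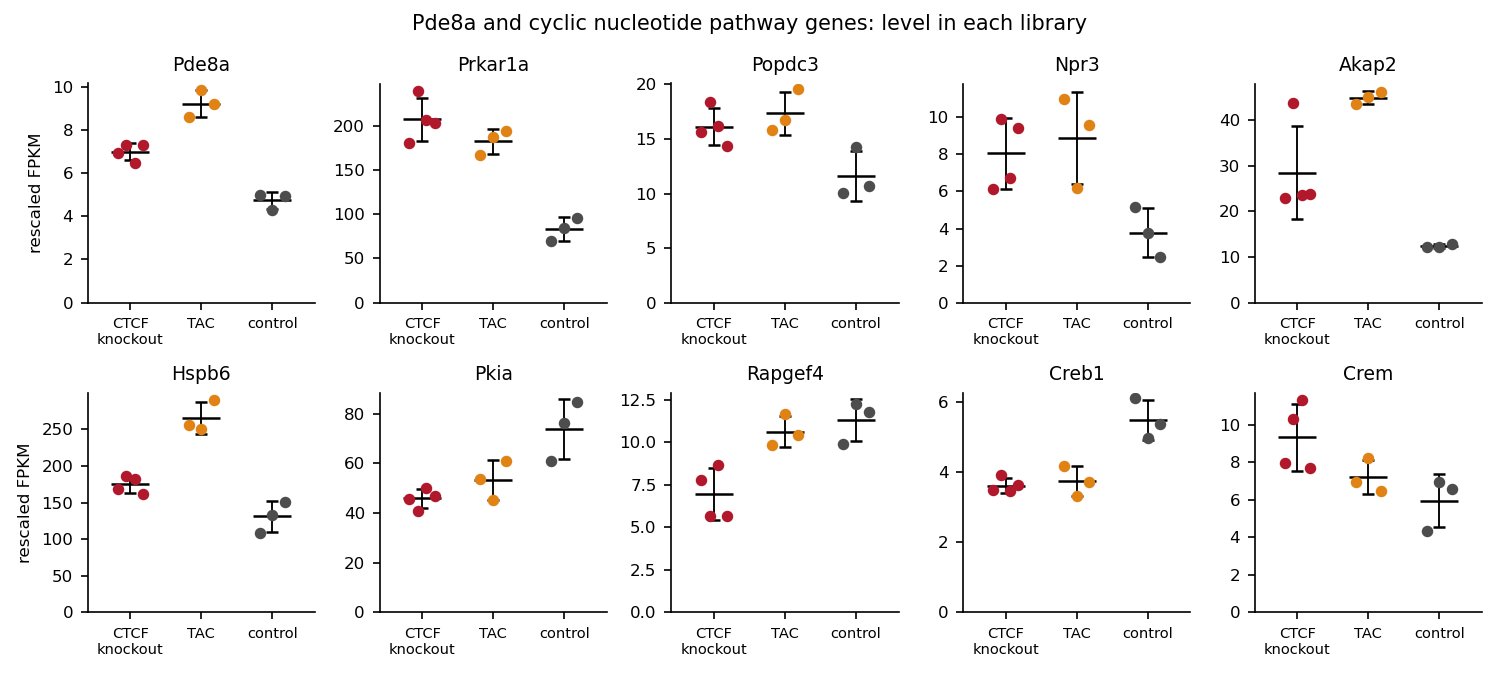
Rescaled FPKM (y axis, from 0) of Pde8a and 9 genes of cyclic nucleotide signalling in each library (points), by group (x axis), with the mean (bar) and SD (whiskers) of 4 CTCF knockout, 3 TAC and 3 control libraries. Prkar1a lay at 167 FPKM or more in all CTCF knockout and TAC libraries and at 69.7 to 95.9 FPKM in control libraries.

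For Pde7a, Pde4d and Pde4b, the members with the widest range over the libraries, the tested genes most like them were sought by the root mean square difference of centred log2(FPKM + 1) over the 10 libraries. Nearest to Pde7a were Aox1 (0.119) and Spsb1 (0.145), nearest to Pde4d were Ctnna3 and 4632427E13Rik (0.106 each), and nearest to Pde4b were Ttc9c (0.112) and Cggbp1 (0.116). These are descriptions over libraries that share the 3 groups.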

How the data were processed

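The authors' deposited files hold Cufflinks transcript FPKM. The submitters' processing notes name Cufflinks 2.2.1, Cuffdiff, Bowtie2 and TopHat2 2.1.0, with mm10 as the build. Per the labels, the libraries were stranded and paired-end; the molecule is labelled polyA RNA, but the protocol describes removal of ribosomal RNA. The files hold no read counts, so depth in reads is unknown; median coverage per FPKM ranged from 3.90 to 6.09.

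Transcript FPKM was summed by gene ID and rescaled by the median of ratios (factors 0.912 to 1.10). Left out were 22 gene IDs that some libraries list at 0 and others above 100 FPKM, as were genes with no transcript of 300 nt. Genes with a mean of at least 1 FPKM were tested as log2(FPKM + 1) with limma 3.58.1 in R 4.3.3, with a variance trend and all 10 libraries in 1 fit. P-values were two-sided and adjusted by Benjamini-Hochberg, and the 17685 transcripts with a mean of at least 1 FPKM were fitted likewise. The method was tested on simulated data.

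The members and lists were chosen with earlier results of these data known. All members were described; of other lists, up to 4 called genes by adjusted p were named, and 1 of these is not reported here. The labels used give no sex; Xist and Y-linked genes marked 4 libraries as male (CTCF knockout replicate 4, TAC replicates 1 and 3, control replicate 2). Nothing in the labels says that equal replicate numbers pair libraries. Per comparison, 20 planned and 3 added alternatives were run.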

Additional observations from a re-analysis of the deposited data

Results flagged for a closer look

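In 52 checks of the spread within the 4 CTCF knockout libraries, 4 values stood apart from the rest of their group by Dixon's ratio, and chance flags about 1 in 20 groups. Pde5a was highest in replicate 4, at 0.992 FPKM, against 0.319 to 0.366 FPKM in the other knockout libraries. Pde7a-206 was highest in replicate 4, at 2.58 FPKM, against 1.52 to 1.64 FPKM. Akap2 was highest in replicate 2, at 43.6 FPKM, against 22.8 to 23.8 FPKM. Akap8 was lowest in replicate 4, at 6.63 FPKM, against 7.31 to 7.44 FPKM. Replicate 4 was the only male of the 4 by its Y-linked genes, and a part of sex in these values was not tested.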

How the results depend on the processing

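Over the alternatives, 2362, 1755 and 372 genes called in CTCF knockout against control, TAC against control and CTCF knockout against TAC became 1487 and 1167 with a mean of at least 5 FPKM in the comparisons with control. Fewer genes are tested at that filter, so the lower counts do not by themselves show lost calls. TAC against control gave 1152 with its 2 groups only. CTCF knockout against TAC gave 195 with no filter, 200 with the replicate block and 233 with sex as a covariate. Leaving out 1 library at a time gave 1687 to 2326, 1239 to 1661 and 133 to 448 genes.

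Of the members, CTCF knockout against control called 0 with no filter, 2 with a mean of at least 5 FPKM, 2 with protein-coding transcripts only and 2 with the length-weighted level, and 0 to 2 with 1 library left out. TAC against control called 2 with the replicate block, with transcripts of at least 1000 nt and with the length-weighted level, and 1 to 2 with 1 library left out. CTCF knockout against TAC called 0 with no filter, with the replicate block, with transcripts of at least 1000 nt and with the length-weighted level, and 0 to 1 with 1 library left out. Among member transcripts, CTCF knockout against control called 1 with no filter or a mean of at least 5 FPKM, 2 with no rescaling or with sex as a covariate, and 1 to 4 with 1 library left out. TAC against control called 0 with no filter, with a mean of at least 5 FPKM and with 2 groups only, 1 with the replicate block, and 0 to 3 with 1 library left out. The member transcripts called in the main fit had means of 1.81 to 4.54 FPKM over the 10 libraries. A filter at a mean of 5 FPKM removes them in advance, so its counts do not show lost calls. The 1 called at that filter in CTCF knockout was another transcript.

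Sign changes concerned uncalled values near 0. Against control, CTCF knockout reversed to 0.0066 for Pde1c and 0.043 for Pde4b without rescaling, and spanned -0.020 to 0.37 for Pde1a with 1 library left out. TAC reversed to 0.0071 for Pde3a without rescaling and to -0.040 for Pde4a with the sex covariate. With 1 library left out, TAC spanned -0.049 to 0.34 for Pde1a, -0.073 to 0.28 for Pde1c, -0.18 to 0.061 for Pde3a and -0.19 to 0.12 for Pde4a. CTCF knockout against TAC reversed for Pde1a to -0.013 with quantile normalization, -0.027 with the replicate block and -0.026 with the sex covariate (-0.027 to 0.10 with 1 library left out). For Pde4d it reversed to -0.13 with the replicate block, -0.0099 with transcripts of at least 1000 nt, -0.23 with protein-coding transcripts and -0.088 with the length-weighted level (-0.13 to 0.11 with 1 library left out). For Pde7a it reversed to 0.014 with transcripts of at least 1000 nt (-0.40 to 0.081 with 1 library left out). The causes were not tested.

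Between libraries of different groups with the same replicate number, deviations from the group mean correlated at -0.359 to 0.327. With different numbers they correlated at -0.345 to 0.462. The labels do not pair libraries by number. The replicate block ended the call of Pde4b between CTCF knockout and TAC (adjusted p = 0.101, limma). With sex as a covariate Pde7a in CTCF knockout (adjusted p = 0.024) and Pde4b in TAC (adjusted p = 0.00755) against control, and Pde4b between CTCF knockout and TAC (adjusted p = 0.0365), kept their calls by limma. The added alternatives (transcripts of at least 1000 nt, protein-coding transcripts, length-weighted level) were chosen after seeing the data. No counting error could be computed without read counts.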
